A study of Homo sapiens with 6 samples.

Results

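The MYC, MAX and MXD network was examined as 10 genes, MYC, MYCN, MAX, MXD1, MXD3, MXD4, MXI1, MNT, MLX and MGA, found by symbol among the 19792 genes of an RNA-seq table. The cells were BT-549, a human triple-negative breast cancer line, in which an inducible promoter drives an shRNA against WDR5. The study had 3 cultures given 0.1% DMSO as vehicle and 3 given 500 ng/ml doxycycline (DOX), which switches the shRNA on, for 7 days. All 6 cultures carry the shRNA construct, and a line without it is not part of the groups. What is described here is the level of each gene as the authors' mean normalized count, which is a single mean over the 3 vehicle and the 3 DOX libraries together. A spread between cultures and a difference between DOX and vehicle cannot be read from such a mean, and the effect of WDR5 silencing on these genes was not analysed here.

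MYC is a basic helix-loop-helix leucine zipper transcription factor that binds DNA only after pairing with MAX. The pair recognizes the E-box CACGTG at promoters and activates genes of growth and biosynthesis. The MXD proteins, MXI1, MNT and MGA also pair with MAX, bind the same E-box and recruit co-repressors, so that MAX is the shared partner of an activating and of several repressing arms. MLX is the MAX-like partner of the MondoA and ChREBP proteins (genes MLXIP and MLXIPL) and also pairs with some MXD proteins and MNT. WDR5, the gene silenced in these cells, is known as a partner that helps MYC to engage chromatin, and it is also a subunit of the complex that MGA forms with Polycomb proteins.

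The 10 genes lie on 8 chromosomes (positions in GRCh38, GENCODE 44). MYCN is on chromosome 2 from 15940550 to 15947007. MAX is on chromosome 14 from 65006174 to 65102695. The MXD genes are dispersed, with MXD1 on chromosome 2 from 69897688 to 69942945, MXD3 on chromosome 5 from 177301461 to 177312757, MXD4 on chromosome 4 from 2247432 to 2262109 and MXI1 on chromosome 10 from 110207605 to 110287365. MNT, at 2384073 to 2401104, and MLX, at 42567072 to 42573239, share chromosome 17. MGA, by far the longest of the transcripts at 14568 bases, is on chromosome 15 from 41621134 to 41773081.

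Promoter windows of 300 bases, from 250 before to 50 after the transcription start (RefSeq, GRCh38.p14), were available for 9 of the genes, all but MYC. The windows were searched for CACGTG, a palindrome that reads alike on both strands. MXD4, MNT and MLX each held 1 copy, and MYCN, MAX, MXD1, MXD3, MXI1 and MGA held none in any of their windows. The 3 sites are shown because this is the sequence that the proteins of the network themselves bind. Each is given 5′ to 3′ on the strand of its gene with 12 bases on either side and the motif in capitals.
MXD4: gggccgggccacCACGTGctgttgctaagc
MNT: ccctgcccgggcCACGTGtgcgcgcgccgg
MLX: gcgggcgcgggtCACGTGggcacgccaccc

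The MXD4 site is at chr4:2262330-2262359 on the minus strand, and its motif begins 238 bases before the start. In MNT the motif begins 193 bases before the start, at chr17:2401236-2401265 on the minus strand. The MLX motif is the nearest, 50 bases before the start, at chr17:42567038-42567067 on the plus strand. Coordinates span the printed bases with their flanks. Distances are to the RefSeq starts of the windows, which for MNT and MLX differ from the GENCODE positions given above. A window with CACGTG was found for 2396 of all 27305 genes of the promoter table (8.77%) and for 1280 of the 10149 matched genes whose mean normalized count reached 10 (12.6%). The network genes are few, with 3 of 9, or 3 of 8 when only detected genes are counted. Their share was not tested against these, and a match of letters does not show that a protein is bound.

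MYC was the most abundant transcript of the network. Its mean normalized count was 8114, above 95.7% of the 13548 genes at or over 10, the level used here to call a gene detected. MAX, the obligate partner, followed with 2589, above 81.6% of detected genes. MGA had a mean of 1959, MLX 1188 and MNT 1155, all in the upper part of the detected genes at percentiles from 63.2 to 75.5. The MXD genes were lower. MXD4 (724), MXD1 (675) and MXI1 (616) lay close to the median of detected genes, which was 677, whereas MXD3 was at 136, above 23.4% of them. The percentile of MXD3 depends on the genes compared, and was 47.6 among all listed genes and 10.9 among those with a mean of at least 50. The plot of all genes shows this order, with MYC far to the right of the other members.

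**Figure D1:**
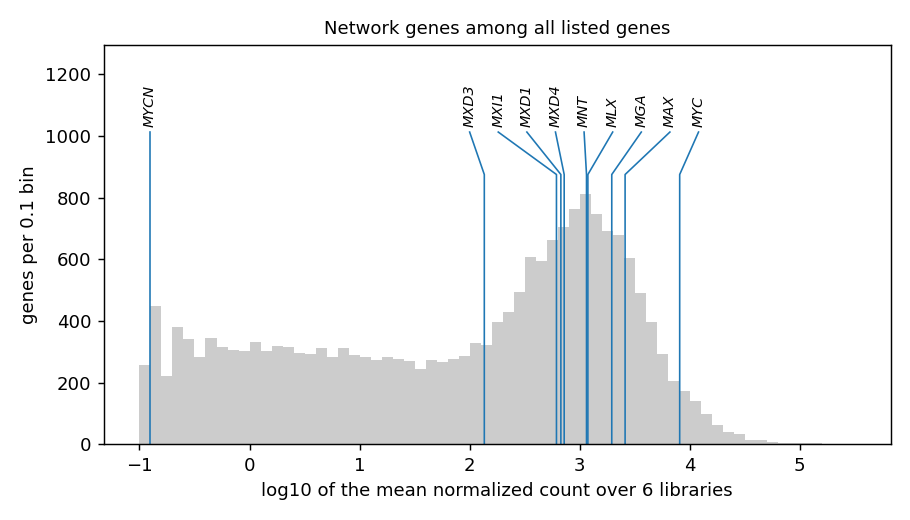
Distribution of the mean normalized count over 6 libraries (log10, x axis) for all 19792 listed genes (grey bars, genes per bin on the y axis), with a blue line for each network gene. MYC (8114) is the member farthest to the right, MXD3 (136) is the lowest of the detected members, and MYCN (0.124) sits at the left end.

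MYCN was practically silent. Its mean of 0.124 is the lowest value in the table and equals the value that 1 read in 1 library takes. This follows from the low end of the table, where 6 single-read values, 1 for each library, were recovered, and all 3195 genes with a mean under 1 came out as whole numbers of reads to within 1e-09. MYCN thus had 1 read in the 6 libraries together, with an exact 95% Poisson interval from 0.0253 to 5.57 reads that covers counting error only. MYCL, the remaining MYC paralog, had a mean normalized count of 54.4. In these cells, MYC was therefore the MYC family transcript with by far the most reads.

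The same single-read values give the size factors of the libraries, which ran from 0.737 to 1.34, so that the scaling of the libraries differed by up to 1.82 times. The values do not name the libraries, and none was assigned to a culture. Together with the size factors, a mean normalized count sets bounds on the reads behind it. MYC rested on 35863 to 65433 reads, MAX on 11443 to 20879 and MXD3, the least covered of the 9 detected genes, on 601 to 1098. Counting error was hence small for these genes, but variation between cultures is not known.

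Counts grow with transcript length, so levels were compared between genes after division by the length of the longest annotated transcript in kb. On this scale MYC had a mean normalized count of 2181 per kb and MAX 821 per kb. MLX followed with 460 per kb and MNT, a repressor found in most tissues, with 234 per kb. MXI1 (177 per kb), MXD4 (171 per kb), MGA (134 per kb) and MXD1 (121 per kb) lay under the median of 181 per kb for detected genes, at percentiles from 40.5 to 49.5. MXD3 was at 59.7 per kb. MGA was thus at place 3 by its mean count but at place 7 per kb.

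The first 3 places, MYC, MAX and MLX, were the same with the union of exons, the MANE Select transcript (a reference isoform agreed between RefSeq and Ensembl) or the coding length as the divisor. The places of MNT, MXI1, MXD4, MGA and MXD1 were not. MNT was at place 4 by the longest transcript but at place 7 by the coding length, at 661 per kb against 1154 for MXD4, 1018 for MXD1 and 696 for MXI1. The coding length leaves out untranslated bases while the count stays the same, so it raises genes with little coding sequence most. MXD1 has 663 coding bases against 5580 in its longest transcript, and MNT 1746 against 4925. MXD1 moved between 5 and 9 of the 10 places with the choice of length, and MXD3 passed it with the MANE Select transcript, at 128 against 122 per kb. These genes cannot be ranked among themselves from the table. The plot of levels per kb shows their ranges overlapping.

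**Figure D2:**
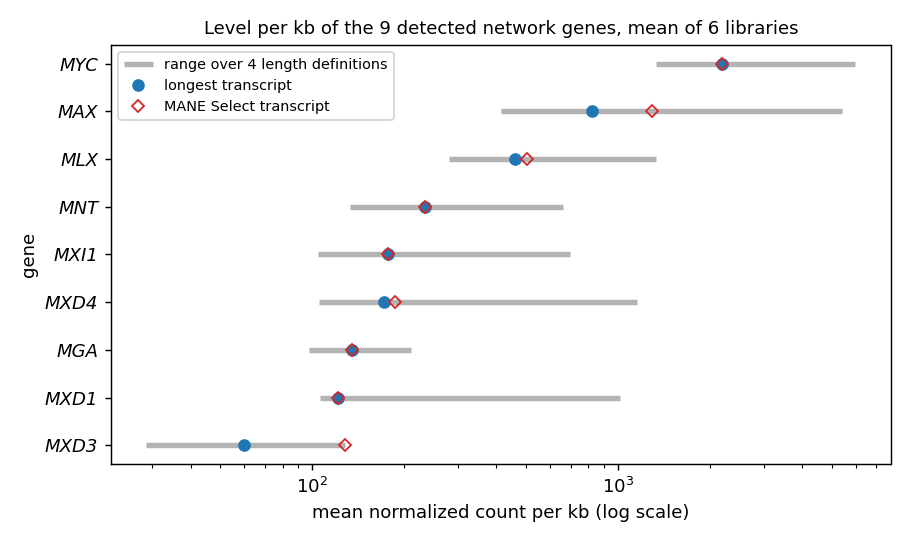
Mean normalized count per kb (log scale, x axis) of the 9 detected network genes, each the mean of all 6 libraries. Filled circles use the longest transcript, open diamonds the MANE Select transcript, and grey bars span 4 length definitions. MYC (2181 per kb) and MAX (821 per kb) are highest by the longest transcript. The bars of MXI1, MXD4 and MXD1 overlap, and so do those of MYC (1328 to 5957 per kb) and MAX (414 to 5394 per kb).

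MYC made up 50.03% of the summed level per kb of the 10 genes, MAX 18.8%, MLX 10.5% and the 6 repressor genes (MXD1, MXI1, MXD3, MXD4, MNT and MGA) together 20.6%. Within the repressing arm, the 4 MXD genes summed to 529 per kb, 2.26 times MNT by the longest transcript and 4.51 times by the coding length. MYC was 2.66 times MAX per kb, although this ratio fell to 1.69 with the MANE Select transcript and to 1.10 with the coding length, since MAX has a long transcript in the annotation next to a short coding sequence. MYC was 2.43 times the 6 repressor genes together, and 1.54 times by coding length. The 6 repressor genes together and MAX were of similar level, with a ratio of 1.09, which was on the other side of 1 with the MANE Select transcript (0.763) and the coding length (0.715). MYC alone exceeded MAX under each of the 4 lengths, by 1.10 to 3.21 times. Its sum with the repressor genes, at 1.82 to 4.60 times MAX, was therefore bound to exceed MAX as well. These are amounts of mRNA and say nothing of the proteins or of the pairs they form.

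Some exons of the network genes are shared with neighbours, and the sources used here do not give the counting tool or its strand setting. The MXD3 exons are shared with 2 coding genes. PRELID1, on the opposite strand with a mean normalized count of 4449, covers 24.2% of the MXD3 exon bases, and RAB24, on the same strand with 342, covers 19.5%. For MLX, PSMC3IP on the opposite strand covers 18.2% of the exon bases with a mean normalized count of 340. FNTB covers 13.1% of the MAX exon bases on the opposite strand and was listed at 9.73. MXD1 shares 3.73% of its exon bases with SNRNP27 on the same strand, which had a mean of 924. How reads in the shared bases were assigned was not tested.

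Of 3 further genes of the extended network, MLXIP and MYCL were detected and MLXIPL was not. MLXIP, encoding the MLX partner MondoA, was at 77.6 per kb with a mean normalized count of 651, near the median of detected genes, MYCL at 15.5 per kb, and MLXIPL, encoding ChREBP, at 0.320 per kb. MLX at 460 per kb was thus 5.93 times MLXIP by the longest transcript. Their mean normalized counts were closer, at 1188 and 651, and the ratio was not computed with other lengths.

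The co-repressors that MXD proteins recruit were all detected, 15 of 15 genes, with a median of 475 per kb, where 68.5% of all listed genes were detected (13548 of 19792). RBBP4 (1756 per kb), a histone-binding subunit, and SAP18 (1572 per kb) were highest, whereas SIN3B (173 per kb), a scaffold of the SIN3 complex, and ING2 (140 per kb) were lowest. SIN3A was at 348 per kb and HDAC1, a histone deacetylase, at 1376 per kb. Of the list, 13 of 15 genes lay above each of the 4 MXD genes per kb of the longest transcript. The highest of these, MXI1 at 177 per kb, was itself above only 49.5% of detected genes. The count was not made with other lengths.

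The 17 co-activators and partners of MYC were likewise all detected, with a median of 362 per kb, where 68.5% of all listed genes were detected. The ATPase gene RUVBL2 (1644 per kb) and the actin-like subunit gene ACTL6A (1225 per kb) were highest, and DMAP1 (131 per kb) and EP400 (93.6 per kb) of the same acetyltransferase complex were lowest. WDR5, on which the study centred, was at 362 per kb with a mean normalized count of 1143, a value that averages silenced and control cultures. Among 12 genes of MYC turnover, all detected with a median of 471 per kb, SET, which encodes an inhibitor of the phosphatase PP2A, was highest (7881 per kb), followed by the mitotic kinase gene AURKA (1759 per kb). SKP2 (156 per kb) and FBXW7 (85.2 per kb), which encode ubiquitin ligase subunits that act on MYC, were lowest.

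All 14 genes listed for the complex of MGA with Polycomb proteins (PRC1.6) were detected, against 68.5% of all listed genes. Their median was 368 per kb. CBX3, an HP1 protein (3258 per kb), and TFDP1, the dimer partner of E2F6 (1924 per kb), were highest. E2F6 itself (137 per kb) and YAF2 (105 per kb) were lowest, with MGA (134 per kb) between them by the longest transcript. This order was not tested with other lengths, over which MGA ranged from 97.6 to 210 per kb. PCGF6, which defines this complex, was at 277 per kb.

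Commonly cited MYC targets were abundant. Of 23 listed genes, 22 were detected, against 68.5% of all genes of the RNA-seq table. Their median was 1815 per kb, which is 10.0 times the median of detected genes and higher than 93.9% of them. LDHA (11573 per kb), of glycolysis, and NPM1 (10872 per kb), of the nucleolus, were highest. CCND2 (7.56 per kb) and TERT, the telomerase subunit gene (0.305 per kb), were lowest. CACGTG was present in a promoter window of 13 of the 22 target genes that had a window, detected or not (59.1%). The share was 8.77% over all genes of the promoter table and 12.6% over those with a mean of at least 10. The target genes were chosen as textbook targets. Neither this share nor the level shows that MYC acts on them. Among 12 other factors that bind E-boxes, 11 were detected, against 68.5% of all listed genes, with a median of 372 per kb. TFE3 (1129 per kb) and SREBF2 (974 per kb) were highest, and TFEB (17.1 per kb) and TFEC (0.138 per kb, 6 reads in all) were lowest. By the longest transcript, TFE3 and SREBF2 were above MAX (821 per kb). This order was not tested with other lengths, and MAX ranged from 414 to 5394 per kb with the choice of length. The plot of gene lists shows the median of the targets to the right of the other medians, and the network genes spread from MYCN to MYC.

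**Figure D3:**
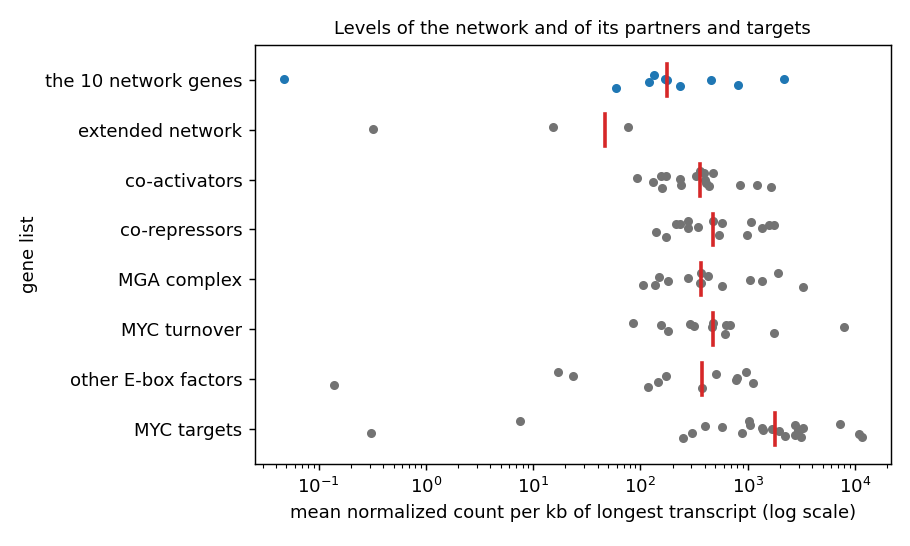
Mean normalized count per kb of the longest transcript (log scale, x axis) for each gene (points) of the network and 7 related lists (y axis), as the mean of 6 libraries; vertical positions within a list are jittered, and red lines mark the median of the genes with a mean of at least 10. The median of the MYC targets (1815 per kb) lies above that of the network genes (177 per kb).

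Levels of marker genes are given beside the label of the cells. The mesenchymal markers VIM, FN1, ZEB1 and CDH2 were all high, with means from 4093 to 47782. ESR1 and PGR, the hormone receptor genes, had 5 reads each in all 6 libraries. ERBB2 had a mean of 1221, and its level per kb was above 57.8% of detected genes. Of the epithelial markers, EPCAM was at 1.30 and CDH1 at 59.6. The endothelial PECAM1, at 2.86, and hepatic ALB were under the detection level of 10. The leukocyte gene PTPRC, at 44.7, was over that level, as was CDH1.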

How the data were processed

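Per the labels and the paper's methods, RNA from triplicate cultures was made into TruSeq stranded mRNA libraries, and the authors aligned reads to GRCh38 with STAR and normalized the counts with DESeq2. Tool versions, the gene counter and its strand setting are not given in the sources used here. The single deposited table lists, per gene symbol, the mean normalized count, a signal value that the authors averaged over all 6 libraries. Its other columns hold the authors' own comparison of DOX with vehicle (log2 fold change, standard error, statistic, p-values) and were not used, so no test between groups was made. No value of a single culture was used here.

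Size factors were derived from the 6 lowest values that are not sums of others, and means under 1 were matched to whole reads within 1e-09. This step was tested on simulated data. Symbols were matched to GENCODE 44 (17729 directly, 594 by RefSeq synonym, 1469 not), and levels were divided by the longest transcript. Genes with a mean of at least 10 were called detected. MGA has no MANE Select transcript in this annotation, and its longest transcript stood in. The members and gene lists were chosen with earlier results of these data known. A gene of the turnover list is not reported here. All members, WDR5 and the 2 highest and 2 lowest genes of each list per kb are named, and a few further genes were named after their values were seen. Alternatives were other lengths, minimums and windows. Python 3.11.15, numpy 2.4.6, pandas 2.3.3, scipy 1.17.1 and matplotlib 3.10.9 were used.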

Additional observations from a re-analysis of the deposited data

How the results depend on the processing

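Detection of 9 of the 10 genes was the same at a minimum mean of 1 or 50. At the minimum of 10, 68.5% of all listed genes were detected, and this share was not computed at 1 or 50. The 3 genes with CACGTG were the same in the 250 bases before the start alone. With the union of exons as length, the MYC share and 5 ratios stayed within 1.5 times of their values. These were MYC to MAX, to MXD3 and to the 6 repressor genes, the repressor genes to MAX, and the MXD genes to MNT. A further ratio, MYC and the repressor genes together to MAX, was 3.75 by longest transcript and 4.60 by union of exons. It was 2.46 with the MANE Select transcript and 1.82 by coding length. The MANE Select and coding lengths were chosen after the data were seen. With the MANE Select transcript, MYC was 1.69 times MAX (2.66 by longest transcript) and 17.1 times MXD3 (36.5). With the coding length, MYC was 1.10 times MAX and 1.54 times the 6 repressor genes, these were 0.715 times MAX, and the 4 MXD genes were 4.51 times MNT (2.26). The MYC share of the network was 36.0% to 51.2% over the 4 lengths. Without a minimum, the median of the extended network was 15.5 per kb (46.5 with it) and that of all genes 68.5 per kb (181), by the addition of genes with few reads. No paired analysis was possible because the values used are means over all libraries, and for the same reason the count tests and the fits without a replicate were not run. A coding length from a protein table was not used, and that of the annotation took its place. Depth limits MYCN, with 1 read in all. The choice of length moved the level per kb of MAX by up to 13.0 times. Its extremes were the union of exons and the coding length, and the latter leaves out untranslated bases. The spread between cultures is not known here.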
